A study of Mus musculus with 9 samples.

Results

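The comparison set 3 RNA-seq libraries of mouse calvarial cells after 7 days of osteoblast differentiation against 3 libraries of calvarial cells at day 0, which are 6 of the 9 libraries of the series. Its members are the protein-coding genes of the table that holds both stages, 21617 of 40548 genes, and the genes described are those of the extracellular matrix, signalling, transcription factors, secreted proteins and the cell surface, outside energy metabolism. Of these protein-coding genes, 16685 had reads and 12107 passed a filter of a mean of at least 1 CPM (reads on the gene divided by all reads on genes, times 1e+06) over the 6 libraries, and only these were tested. They include 1164 of the 2064 members of 37 gene lists in 5 classes, of which 1813 had reads. A gene absent at 1 stage could pass the filter through the other stage alone: 72 tested members had under 1 CPM on average at day 0, of which 62 were called higher at day 7, and 33 had under 1 CPM at day 7, of which 24 were called lower.

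All cells were taken from the calvaria, the skull roof, of C57BL/6 pups (C57BL/6J in the study's methods), given in the labels as postnatal day 2-3, and pups of both sexes were used. No transgene or allele is named in the labels of these libraries, although the study also used pups with a ColI-GFP reporter. Cells at day 0 had grown to confluency without differentiation medium. Cells at day 7 had spent 7 further days in mineralization medium, which adds β-glycerol phosphate and ascorbic acid and was renewed every day. According to the labels, mineralized cells were freed with collagenase I before trypsin and non-mineralized cells with trypsin alone. No library of cells kept for 7 days in another medium was analysed here. Differentiation, further time in culture and the use of collagenase therefore cannot be told apart in the values below.

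Osteoblasts build bone by secreting a matrix made mostly of type I collagen and then by seeding mineral in it, for which they carry alkaline phosphatase and secrete acidic, calcium-binding proteins. Their progenitors in the skull are mesenchymal cells whose commitment depends on the transcription factors Runx2 and Sp7 and on Wnt, BMP, Hedgehog and parathyroid hormone signals. Osteoblasts also act on other cells through secreted factors, among them regulators of osteoclasts, blood vessels and nerves.

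The libraries held 7741204 to 14013219 reads on genes at day 0 and 10675858 to 15622755 at day 7. The study calls the 3 libraries of a stage biological replicates. The labels do not say whether they came from separate cultures or animals, so p-values measure the spread between these libraries. A predicted non-coding gene, Gm42418, and 16 genes that moved with it took between 0.332% and 21.6% of the reads, most in day 0 replicate 3 and day 7 replicate 2, and a larger share of such reads lowers the CPM of all other genes in that library. Over every gene tested, the median log2 fold change was -0.11 with the deposited CPM and -0.01 after median-of-ratios scaling. All 8 osteoblast markers examined were higher at day 7. Their summed level was 1795 to 2508 RPKM at day 0 and 8079 to 10160 RPKM at day 7. RPKM is CPM divided by the length of the gene model in kilobases. Known osteoblast markers had already been shown by the study in a heatmap of these libraries. The direction of these markers is therefore not independent evidence of cell identity. Markers of endothelial cells summed to at most 0.479 RPKM and those of erythroid cells to at most 0.484 RPKM in any library, with Tie1, Emcn and Hbb-bs listed at 0 in all 6. Fewer cells of a type and less RNA per cell cannot be told apart in these bulk libraries.

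Between the stages, 1539 protein-coding genes were higher and 2283 were lower at day 7 in the limma fit of log2(CPM + 0.5), at a Benjamini-Hochberg adjusted p under 0.05 over every gene tested. Limma shrinks each gene's variance towards the trend of all genes. These are 12.7% and 18.9% of the protein-coding genes tested, 31.6% together. The split depended on the scaling: upward calls made up 40.3% with the deposited CPM, 51.8% once libraries were scaled by median of ratios, and 25.2% without day 0 replicate 3, where 4575 genes were lower. Leaving out day 0 replicate 2 gave 1462 such genes, and leaving out day 7 replicate 2 gave 1484. The test was also repeated with edgeR and with limma's voomWithQualityWeights on reads recovered from the CPM values, with CPM over the genes that do not move with Gm42418, without the pair of libraries high in it, and with every gene that had a read in the fit, which tests more members of most lists. Large changes ran mostly upward, with 713 genes called and over 2-fold higher against 478 lower, 255 against 64 over 4-fold, and 52 against 1 over 16-fold. For 42.8% of the protein-coding genes tested, the 3 libraries of day 7 all lay on 1 side of those of day 0. An exact permutation test of 3 libraries against 3 cannot give a p below 0.1, so single genes are called by the fit across all genes.

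The plot of called shares by list gives each list beside these shares of all protein-coding genes. Of 203 matrix genes tested, 82 were higher and 56 lower, a called share of 68.0%. Among 269 signalling genes 92 were higher and 66 lower, which is 58.7% called. Transcription factors had 38 genes higher and 59 lower of 188, and secreted proteins 38 higher and 35 lower of 137, while of 428 surface proteins 24.5% were higher and 29.2% lower. The median log2 fold change was 0.20 in matrix genes, 0.09 in signalling genes, -0.18 in transcription factors, -0.03 in secreted proteins and -0.11 in surface proteins, against -0.11 over all protein-coding genes.

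**Figure D1:**
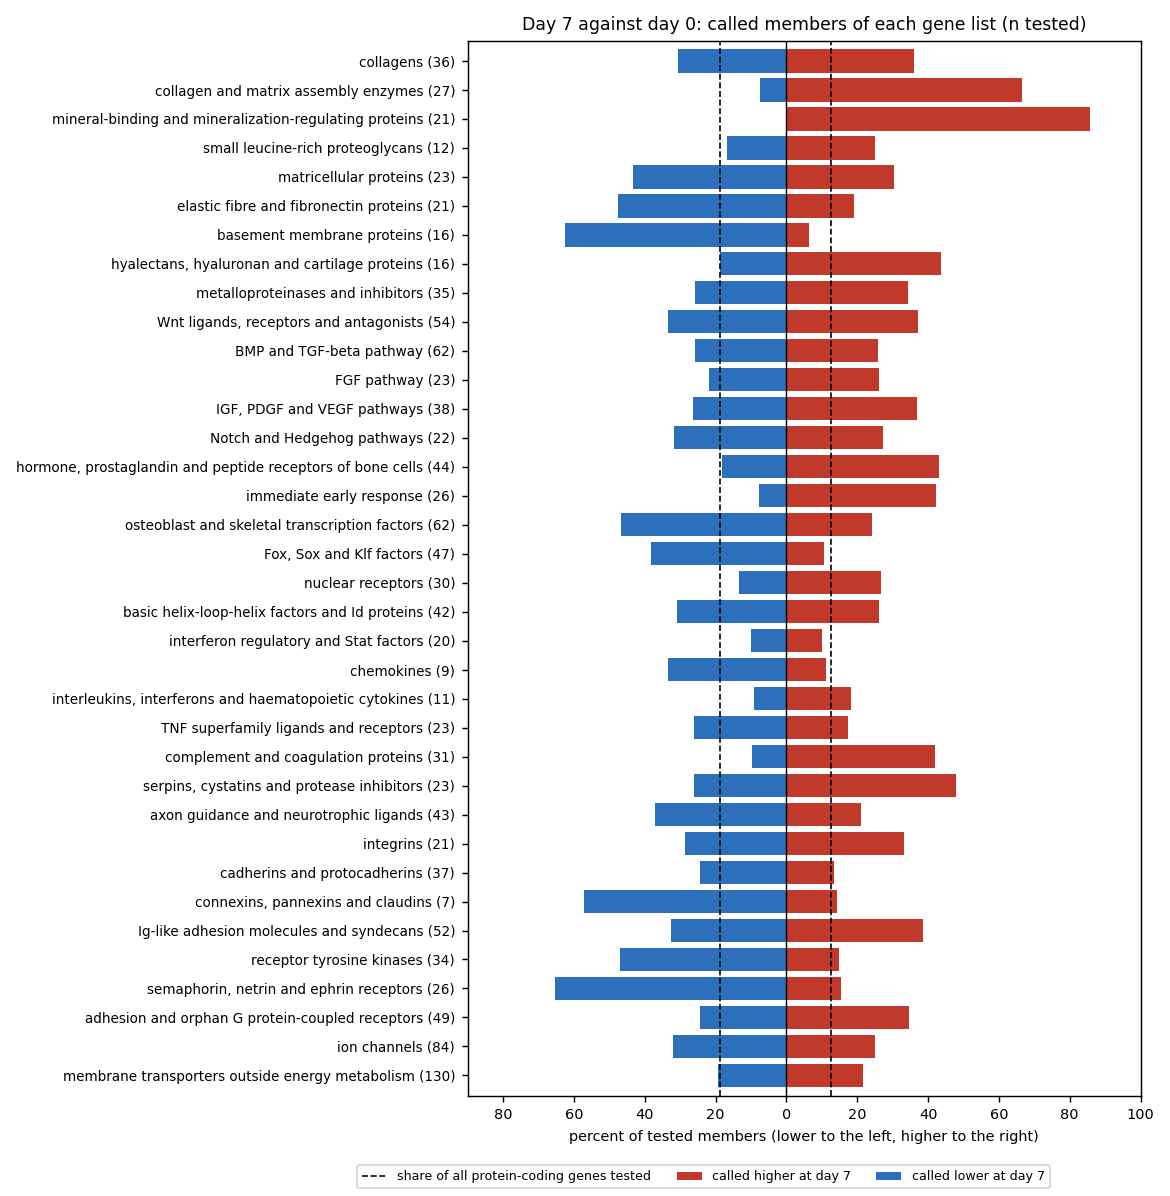
Share of the tested members of each gene list that was called higher (right, red) or lower (left, blue) at day 7, in percent, with the number tested in brackets and dashed lines at the shares of all protein-coding genes tested, 12.7% higher and 18.9% lower. Lists with under 5 tested members are not drawn. Mineralization proteins reach 85.7% higher with no member lower, and most of those that rose were already markers in the study's heatmap. Basement membrane proteins and the receptors of semaphorins, netrins and ephrins lie mostly to the left.

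The 10 largest rises among genes with a mean of at least 10 CPM, leaving out energy metabolism and the marker genes of the study, held 3 collagens, an enzyme of sphingolipid breakdown, a Wnt antagonist and several membrane proteins. Col13a1, a transmembrane collagen of cell contacts, had 0.0774, 0.309 and 0.168 RPKM at day 0 and 47.7, 47.9 and 41.2 RPKM at day 7. It lies on chromosome 10 from 61838236 to 61979108 on the reverse strand in GRCm38, and its level rose 247-fold (log2 fold change 7.36, standard error 0.20, adjusted p = 1.99e-32, limma). Smpd3, the neutral sphingomyelinase that releases ceramide and is needed for bone mineralization, had 0.277, 0.341 and 0.276 RPKM at day 0 and 65.1, 53.7 and 73.4 RPKM at day 7, a rise of 215-fold (log2 fold change 7.34, standard error 0.17, adjusted p = 2.52e-35). In both genes the lowest day 7 library was over 100 times the highest day 0 library.

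Dkk1, a secreted blocker of the Wnt co-receptors, lies on chromosome 19 from 30545863 to 30549665 on the reverse strand. It had 3, 0 and 2 reads at day 0 and 28.5, 29.1 and 21.2 RPKM at day 7, and since no day 0 library held more than 3 reads its rise is at least 225-fold. Slc36a2, a proton-coupled transporter of small amino acids such as proline and glycine, had 1, 0 and 0 reads at day 0 and 9.31, 11.8 and 10.3 RPKM at day 7, which is at least 119.9-fold higher. Both genes were close to undetected before differentiation and clearly expressed after it. Ramp1, which turns the calcitonin receptor-like receptor into the receptor of the nerve peptide CGRP, had 0.26, 0.221 and 0.0427 RPKM at day 0 and 30, 32.1 and 25.8 RPKM at day 7. Ptprz1, a receptor-type phosphatase that binds pleiotrophin and midkine, rose from 0.232 to 23.2 RPKM on average. Ifitm5, an osteoblast membrane protein mutated in a form of brittle bone disease, rose from 1.21 to 135 RPKM. Dynap rose from 0.223 to 33.7 RPKM, with 1 day 0 library listed at 0.

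The 10 largest falls were smaller in size. Txnip, a binding partner of thioredoxin that also limits glucose uptake, had 43.2, 56 and 38.4 RPKM at day 0 and 1.42, 0.957 and 2.3 RPKM at day 7 and fell 29.4-fold (log2 fold change -4.79, standard error 0.20, adjusted p = 1.68e-25). Dner, a membrane ligand of Notch, had 5.43, 5.28 and 5.4 RPKM at day 0 and 0.337, 0.254 and 0.481 RPKM at day 7 and fell 15-fold. Col14a1, a collagen that sits on fibril surfaces and is found in soft connective tissue, had 5.87, 7.7 and 6.26 RPKM at day 0 and 1.04, 0.414 and 0.666 RPKM at day 7. Ptx3, a secreted pentraxin of innate immunity, fell from 106 to 12.5 RPKM and was the gene with the highest day 0 level of the 10. Rspo3, a secreted amplifier of Wnt signals, fell from 17.1 to 2.44 RPKM, and Alcam, an adhesion molecule of mesenchymal progenitors, from 44.9 to 7.57 RPKM. Serpinb1a, an inhibitor of neutrophil proteases, fell from 27.5 to 4.14 RPKM, the imprinted zinc finger gene Peg3 from 26.9 to 4.59 RPKM, Nmnat2, an enzyme of NAD synthesis, from 4.76 to 0.638 RPKM and Ptchd4, a Patched-related membrane protein, from 6.35 to 0.707 RPKM. Lack of overlap between the libraries of the stages was required of these 20 genes, so it is not a result.

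**Figure D2:**
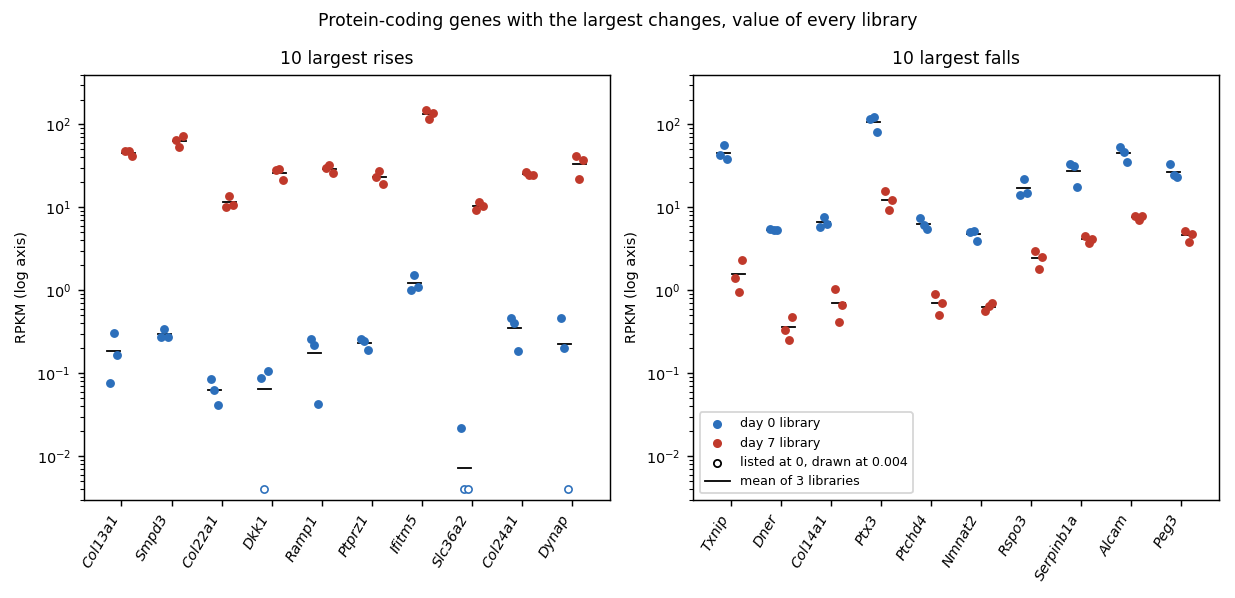
RPKM of every library, on a log axis, for the 10 largest rises (left) and 10 largest falls (right), with day 0 in blue, day 7 in red and a black bar at the mean of 3 libraries. Open circles are libraries in which the gene is listed at 0. The stages are apart in all 20 genes because this was required of them. The rises start mostly under 1 RPKM, whereas the falls start between 4.76 and 106 RPKM on average.

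Collagens were called in both directions. Of 44 collagen genes 36 were tested, and 13 were higher, 11 lower and 12 did not pass. Fibrillar chains led by level: Col1a1 rose from 2158 to 5475 RPKM, Col1a2 from 1643 to 3988 RPKM and Col3a1 from 487 to 848 RPKM. With every gene that had a read in the fit, the adjusted p of these 3 was 0.187, 0.298 and 0.168. Col5a2, below Col1a1 and Col1a2 in level at day 0, had 577 ± 86.3 RPKM at day 0 and 569 ± 45 RPKM at day 7 (SD, n = 3) and did not pass (log2 fold change -0.01, standard error 0.20, adjusted p = 0.976). Col22a1, a collagen of tissue junctions, had 0.0852, 0.0636 and 0.0421 RPKM at day 0 and 10.2, 13.9 and 10.8 RPKM at day 7, and Col24a1, a minor fibrillar collagen of developing bone, had 0.459, 0.406 and 0.186 RPKM at day 0 and 26.8, 24.8 and 24.4 RPKM at day 7. Both were at least 50 times higher in every day 7 library than in any day 0 library. Col11a2, a fibrillar chain best known from cartilage, rose 9.64-fold from 14.6 to 141 RPKM, whereas Col11a1 had a log2 fold change of 0.40 and did not pass.

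Of the 11 collagens that fell, Col4a1 and Col4a2, which form the main network of basement membranes and lie next to each other in the genome, were down 3.22-fold and 3.18-fold, from 188 to 58.4 RPKM and from 115 to 36.3 RPKM. Col18a1, the source of endostatin, fell from 23.5 to 9.83 RPKM. Col2a1, the main cartilage collagen, had 419.8, 140.2 and 158 RPKM at day 0 and 92.8, 29.2 and 38.5 RPKM at day 7, with day 0 replicate 1 well above the other day 0 libraries but no overlap between the stages (log2 fold change -2.16, standard error 0.26, adjusted p = 2.51e-09). Col9a1, which decorates type II fibrils, had a log2 fold change of -1.04. Col10a1, the collagen of hypertrophic cartilage, rose from 0.759 to 2.61 RPKM. The 9 chondrocyte markers examined include Col2a1, Col9a1 and Col10a1 themselves, so they are not separate evidence on these collagens. Of 8 tested, 3 were higher and 3 lower. Their summed level, to which Col2a1 contributes, was 169.9 to 476 RPKM at day 0 and 70.5 to 176 RPKM at day 7. None of the chondrocyte markers was at 0, and the part of chondrocytes in the collagen values was not tested.

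Enzymes that modify and assemble collagen moved mostly upward, with 18 of 27 higher and 2 lower. Without day 7 replicate 2, 1 was lower, and with CPM over the genes that do not move with Gm42418, 4 were. The prolyl hydroxylases stabilise the triple helix, and their catalytic subunit P4ha1 rose 4.25-fold from 114 to 482 RPKM. P4ha2 had 17.8, 14.4 and 11.2 RPKM at day 0 and 141, 109.7 and 108 RPKM at day 7 and rose 8.25-fold (log2 fold change 3.05, standard error 0.16, adjusted p = 6.08e-21). P3h2, a prolyl 3-hydroxylase, rose from 0.676 to 9.29 RPKM, and its relative P3h1 with the cofactor Crtap, both mutated in brittle bone disease, from 68.7 to 112 RPKM and from 99.8 to 155 RPKM. Among the lysyl oxidases, which cross-link fibrils, Loxl4 rose 8.04-fold from 9.48 to 76.2 RPKM and Loxl2 from 50.4 to 78.5 RPKM, whereas Loxl1, tied to elastic fibres, fell from 88.1 to 56 RPKM. Lox had 340.2 ± 33.8 RPKM at day 0 and 461 ± 65 RPKM at day 7 (SD, n = 3) and did not pass (log2 fold change 0.43, standard error 0.18, adjusted p = 0.0563). Serpinh1, the collagen chaperone Hsp47 and the gene with the highest level of the list, had 2245, 2254 and 1789 RPKM at day 0 and 2576, 2189.6 and 2505 RPKM at day 7 and did not pass either (log2 fold change 0.21, standard error 0.20, adjusted p = 0.447).

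Proteins that bind mineral or govern its deposition moved upward, with 18 of 21 tested members higher, 0 lower and a median log2 fold change of 3.58. Most of those that rose are known osteoblast markers that the study already showed in a heatmap of these libraries. They include Ibsp, Spp1, Dmp1, Mepe, Bglap, Bglap2, Enpp1 and Phospho1. The direction, share and median of this list are therefore not independent evidence. Outside those markers, Car12, a carbonic anhydrase of the cell surface, rose from 0.41 to 7.51 RPKM. Tmem119, a membrane protein of osteoblasts, rose from 42.1 to 242 RPKM, and Ank, which exports the mineralization inhibitor pyrophosphate, from 23.6 to 57.5 RPKM. Mgp, the Gla protein that inhibits calcification of soft tissue, had 538, 429 and 452 RPKM at day 0 and 775, 764 and 683 RPKM at day 7, a small rise to a high level (log2 fold change 0.65, standard error 0.16, adjusted p = 8.92e-04). Fam20c, the kinase that phosphorylates secreted matrix proteins, rose from 6.17 to 10.4 RPKM. The largest rise, that of Ibsp, bone sialoprotein, was from 3.82 to 2808 RPKM.

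Promoter sequences were read from RefSeq (GRCm38.p6), taking the 250 bases before each annotated start, to show what stands in front of genes of this group that were barely expressed at day 0. Runx factors bind near the letters TGTGGT or, on the other strand, ACCACA. Of the 18 mineralization genes that rose, 14 had a promoter in the table. Of these, 6 held the Runx letters on either strand, against 15.9% of all genes with a promoter. They were Bglap, Car12, Dmp1, Enpp1, Mepe and Spp1, and all but Car12 were among the heatmap markers of the study. Of the 10 largest rises 6 had a promoter, and Dkk1 was the gene with these letters. The letters GACCACCC or GGGTGGTC, to which Gli factors bind, stood in the Ifitm5 promoter and in those of 0.814% of all genes. The Hedgehog genes Gli1, Hhip and Ptch1, all higher at day 7, were searched as well. Of these 3, Hhip and Ptch1 had a promoter, and neither held the Gli letters. Of the 10 largest falls 7 had a promoter, and none held the Runx or Gli letters. TAATTA, bound by homeodomain proteins, was in 5.65% of genes and here in Mepe and Spp1, and in Ptx3 among the 10 largest falls. TGACGTCA was in 1.77% of genes and here in Peg3 and Hhip, and TGACTCA in 5.16% and here in Phospho1. None of the motifs contains another, and a match of letters is a description of the sequence and not evidence of binding. The 4 promoters below each hold a match and run 5′ to 3′ towards the start, with the matched letters in capitals. Promoters without a match are not printed. They lie at chr3:88384467-88384716 on the reverse strand (Bglap, osteocalcin, whose reads may be shared with its near-identical copy Bglap2), chr5:104325079-104325328 on the forward strand (Mepe, a mineral-binding phosphoglycoprotein), chr7:140950244-140950493 on the reverse strand (Ifitm5) and chr19:30549497-30549746 on the reverse strand (Dkk1).
Bglap: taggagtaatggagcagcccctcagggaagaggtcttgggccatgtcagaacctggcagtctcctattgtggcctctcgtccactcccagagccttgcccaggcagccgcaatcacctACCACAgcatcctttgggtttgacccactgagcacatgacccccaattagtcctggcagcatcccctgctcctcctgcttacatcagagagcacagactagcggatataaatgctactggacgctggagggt
Mepe: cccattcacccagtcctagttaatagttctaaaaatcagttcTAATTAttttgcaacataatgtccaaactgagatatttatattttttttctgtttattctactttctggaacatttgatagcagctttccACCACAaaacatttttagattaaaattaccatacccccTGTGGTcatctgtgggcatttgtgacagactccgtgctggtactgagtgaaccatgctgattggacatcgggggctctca
Ifitm5: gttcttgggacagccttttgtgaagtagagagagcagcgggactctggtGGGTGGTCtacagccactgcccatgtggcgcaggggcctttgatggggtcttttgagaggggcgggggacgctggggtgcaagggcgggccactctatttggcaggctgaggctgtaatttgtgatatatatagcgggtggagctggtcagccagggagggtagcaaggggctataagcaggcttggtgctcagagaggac
Dkk1: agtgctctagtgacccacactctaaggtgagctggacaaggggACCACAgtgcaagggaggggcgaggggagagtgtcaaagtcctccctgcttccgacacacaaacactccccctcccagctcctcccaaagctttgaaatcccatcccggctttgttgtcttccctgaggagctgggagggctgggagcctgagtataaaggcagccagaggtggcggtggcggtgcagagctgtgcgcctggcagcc
In Bglap the Runx letters began 132 bases before the start, and in Mepe they stood at 118 and 80 bases with TAATTA at 208. In Dkk1 the Runx letters were 207 bases away, and in Ifitm5 the Gli letters were 201 bases away. These distances are to the RefSeq starts. GENCODE M21 places the outer ends of Dkk1 and Ifitm5 at 30549665 and 140950291, inside the windows printed, so the distances differ by annotation. The means of these genes went from 0.55 to 148 RPKM for Bglap, from 0.0256 to 3.57 RPKM for Mepe, from 1.21 to 135 RPKM for Ifitm5 and from 0.0649 to 26.3 RPKM for Dkk1. All 4 thus stood under 2 RPKM before differentiation.

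Small leucine-rich proteoglycans, which bind collagen fibrils and set their spacing, had 3 of 12 tested members higher and 2 lower, 41.7% called. The lower members were down to 1 when day 0 replicate 1, day 0 replicate 2, day 7 replicate 2 or day 7 replicate 3 was left out or every gene with a read was fitted, and 5 were higher with voomWithQualityWeights. Omd, osteomodulin, had 9.03, 8.22 and 6.31 RPKM at day 0 and 38.2, 31.8 and 35.1 RPKM at day 7 and rose 4.46-fold (log2 fold change 2.12, standard error 0.17, adjusted p = 2.00e-14). Lum, lumican, rose from 340 to 599 RPKM and was the member with the highest level. Podn, podocan, fell 3.59-fold from 21.2 to 5.91 RPKM. Bgn, biglycan, had 203 ± 11.2 RPKM at day 0 and 153 ± 15.8 RPKM at day 7 (SD, n = 3) and did not pass (log2 fold change -0.41, standard error 0.17, adjusted p = 0.0539).

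Matricellular proteins, which signal to cells from the matrix without building it, had 7 members higher and 10 lower of 23 tested. Thbs1, thrombospondin 1, an activator of TGF-β, had 1885, 1577 and 1632 RPKM at day 0 and 637, 371 and 492 RPKM at day 7 and fell 3.4-fold (log2 fold change -1.79, standard error 0.21, adjusted p = 9.45e-10). Thbs2 fell from 575 to 273 RPKM, and the CCN family members Wisp2 and Nov from 65.4 to 17.4 RPKM and from 78 to 24.3 RPKM. Tnn, tenascin N of bone and periosteum, had 66.6, 53.7 and 45.1 RPKM at day 0 and 198, 168 and 157 RPKM at day 7 and rose 3.16-fold. Sparc, osteonectin, which binds collagen and calcium, rose from 2264 to 3949 RPKM, though its adjusted p was 0.281 in a fit of every gene with a read. Spock1, a relative of Sparc, had at most 3 reads in each day 0 library and rose at least 27.2-fold, to 0.924 RPKM.

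Elastic fibre and fibronectin proteins were lower more often than higher, with 10 of 21 lower and 4 higher. The fibrillins, the scaffold of microfibrils that store latent TGF-β, both fell: Fbn2 had 41.4, 42.8 and 39.5 RPKM at day 0 and 11.8, 5.76 and 8.2 RPKM at day 7 (log2 fold change -2.32, standard error 0.17, adjusted p = 9.89e-16), and Fbn1 had 60.1, 59.2 and 54 RPKM at day 0 and 14.2, 16.8 and 15.7 RPKM at day 7 (log2 fold change -1.89, standard error 0.15, adjusted p = 1.97e-14). Every day 0 library was over 2 times every day 7 library in both. Fn1, fibronectin, had 481, 422 and 574 RPKM at day 0 and 396, 256 and 264 RPKM at day 7, and the call was lost without day 7 replicate 3 (adjusted p = 0.066), and also with every gene that had a read, with median-of-ratios scaling, with voomWithQualityWeights or without the pair of libraries high in Gm42418 (adjusted p = 0.184, 0.0565, 0.0744 and 0.0854 in turn). Fbln2, fibulin 2, fell from 176 to 92.4 RPKM and the latent TGF-β binding proteins Ltbp3 and Ltbp4 from 19.3 to 8.93 RPKM and from 13.9 to 5.61 RPKM. Eln, elastin itself, went the other way and rose 3.21-fold from 6.33 to 20.3 RPKM, with Mfap2 from 7.22 to 14.7 RPKM.

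Basement membrane proteins were lower in 10 of 16 and higher in 1, Ntn4, a short laminin-like netrin, where the call was lost without day 7 replicate 1 (adjusted p = 0.0848). With median-of-ratios scaling, edgeR or voomWithQualityWeights, 3 were higher. The laminin chains Lamb1 and Lamc1 had log2 fold changes of -1.19 and -1.17, Lama1 of -1.97, and the laminin-binding nidogen Nid1 of -1.20, from 54.1 to 23.5 RPKM. Lamb2, the laminin chain with the highest level, fell from 73 to 45.1 RPKM, and Nid2 from 55.1 to 33.7 RPKM.

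Hyaluronan-binding and cartilage proteins had 7 of 16 tested members higher and 3 lower. Leaving out any library but day 0 replicate 3 left 1 member lower. Acan, aggrecan, had 9.03, 2.97 and 3.63 RPKM at day 0 and 19, 7.7 and 6.17 RPKM at day 7, and Vcan, versican of loose connective tissue, had 16.3, 14.6 and 12.5 RPKM at day 0 and 5.65, 4.82 and 4.45 RPKM at day 7. The day 7 libraries of Vcan all lay below those of day 0, a fall of 2.91-fold, whereas the stages of Acan overlapped and the call was lost without day 0 replicate 3 or day 7 replicate 1 (adjusted p = 0.118 and 0.142 in turn), and also with median-of-ratios scaling, with edgeR, with CPM over the genes that do not move with Gm42418 or without the pair of libraries high in Gm42418 (adjusted p = 0.0513, 0.0568, 0.064 and 0.158 in turn). Hapln4 and Cilp rose from 0.183 to 4.8 RPKM and from 0.0866 to 2.28 RPKM. Matn4, matrilin 4, rose from 13.1 to 27.5 RPKM.

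Metalloproteinases and their inhibitors had 12 members higher and 9 lower of 35 tested. Timp1, an inhibitor, had 311, 255 and 235 RPKM at day 0 and 1200.5, 959.8 and 1013 RPKM at day 7 and rose 3.96-fold (log2 fold change 1.99, standard error 0.16, adjusted p = 1.45e-14), and was the highest of the list at day 7. Adamts18 rose 24.4-fold from 0.625 to 15.3 RPKM and Adamts12 from 7.31 to 13.8 RPKM. Adamts5, which cleaves aggrecan and versican, had 25.9, 27.9 and 22.4 RPKM at day 0 and 5.36, 3.64 and 4.99 RPKM at day 7 and fell 5.45-fold (log2 fold change -2.44, standard error 0.16, adjusted p = 1.21e-17). Adamts1, another versican-cleaving protease, and Adamtsl3 had log2 fold changes of -1.19 and -2.09. The collagen-degrading Mmp2 and Mmp14 stayed among the highest members, with log2 fold changes of -0.21 and 0.06 that did not pass.

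**Figure D3:**
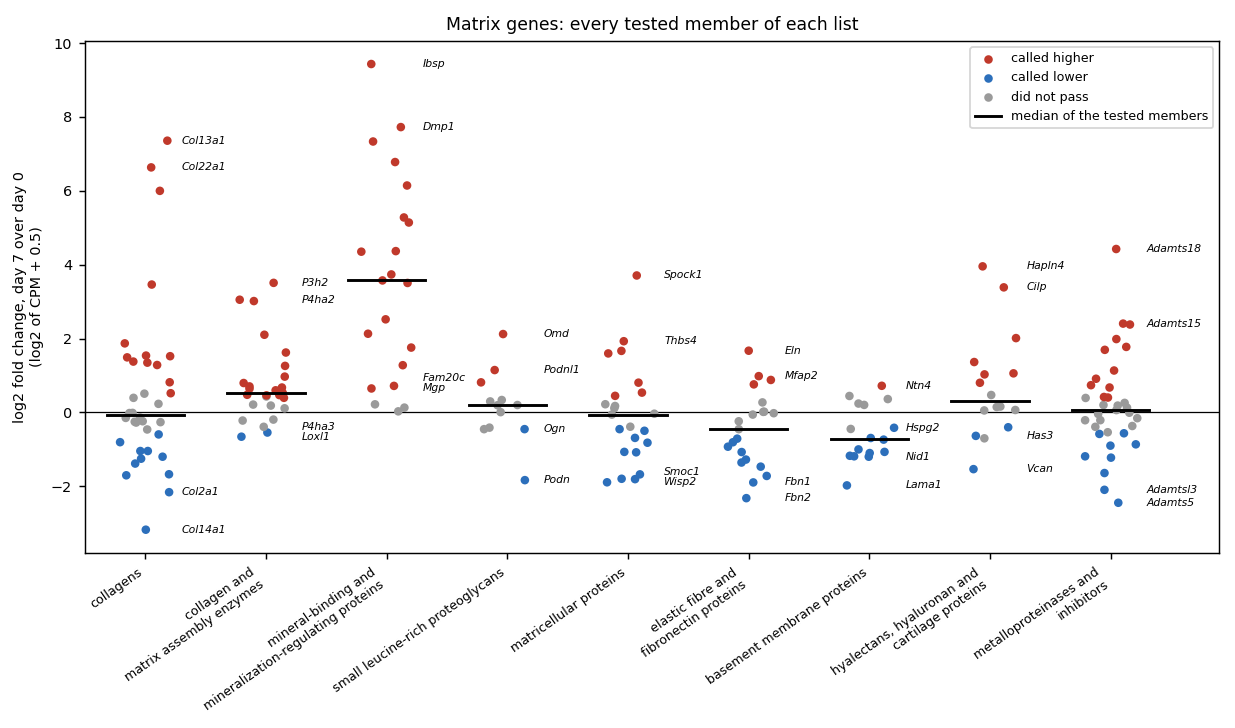
Log2 fold change of day 7 over day 0, on the log2(CPM + 0.5) scale, of every tested member of the 9 matrix lists, in red where called higher, blue where called lower and grey where neither, with a black bar at the median of the tested members. The mineralization list, in which most of the rising members were already markers in the study's heatmap, has its median at 3.58. The assembly enzymes have theirs at 0.53, the elastic fibre list at -0.45 and the basement membrane list at -0.71.

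Wnt ligands bind frizzled receptors with the co-receptors Lrp5 and Lrp6, secreted antagonists capture the ligand or the co-receptor, and R-spondins act through Lgr receptors to keep frizzleds on the surface. Of 54 genes of the pathway tested, 20 were higher and 18 lower, and the plot of signalling genes by role gives those of known function. Among the antagonists, Frzb had 0.33, 0.413 and 0.359 RPKM at day 0 and 23.2, 12.3 and 13.8 RPKM at day 7 and rose 44.7-fold (log2 fold change 4.93, standard error 0.21, adjusted p = 6.30e-25). Sfrp4 rose 34.6-fold from 0.465 to 16.1 RPKM and Wif1 18.3-fold from 2.35 to 42.9 RPKM. Notum, which strips the lipid from Wnt proteins, rose from 0.397 to 2.91 RPKM. The antagonists Sfrp2 and Sfrp1 fell, from 154 to 66.4 RPKM and from 3.29 to 1.37 RPKM. Dkk3 had 147 ± 12 RPKM at day 0 and 115 ± 3.12 RPKM at day 7 (SD, n = 3) and did not pass.

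The R-spondins Rspo1, Rspo2 and Rspo3 were all lower, with log2 fold changes of -1.18, -0.71 and -2.70. For Rspo2, the call was lost without day 0 replicate 1, day 0 replicate 2, day 7 replicate 1 or day 7 replicate 2 (adjusted p = 0.0873, 0.161, 0.0927 and 0.057 in turn) and with every gene that had a read (adjusted p = 0.102). Their receptors went apart: Lgr5 fell 5.32-fold from 2.53 to 0.475 RPKM and Lgr6 rose 9.4-fold from 0.173 to 1.63 RPKM, both at low levels. Rnf43, the ubiquitin ligase that removes frizzleds, rose from 0.0417 to 1.18 RPKM. Of the ligands, Wnt7b had 0.307, 0.227 and 0.176 RPKM at day 0 and 3.86, 2.59 and 4.1 RPKM at day 7 and Wnt10b had 8.74, 7.27 and 4.59 RPKM at day 0 and 20.3, 17.5 and 21.4 RPKM at day 7, with rises of 14.9-fold and 2.87-fold. Wnt9a and Wnt2 fell from 9.29 to 3.71 RPKM and from 1.75 to 0.509 RPKM. Among the receptors, Fzd2, Fzd6 and Fzd10 had log2 fold changes of -0.76, -1.03 and -1.54, Lrp6 of -0.58 and Lrp5 of 0.36, which did not pass. Fzd1, the frizzled with the highest level, had 59.5 ± 9.65 RPKM at day 0 and 67.7 ± 10.3 RPKM at day 7 (SD, n = 3). Some of the genes that Wnt signals commonly induce, not a full set, were also read. Tcf7 rose 17.5-fold from 0.474 to 8.31 RPKM. Axin2, Nkd1 and Lef1 had log2 fold changes of 0.36, -0.82 and -0.37, of which only Nkd1 passed. Axin2 was called higher with median-of-ratios scaling, edgeR or voomWithQualityWeights.

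Of 62 BMP and TGF-β genes, 16 were higher and 16 lower. The balance moved with the scaling and the libraries, to 22 higher and 14 lower with median-of-ratios scaling and to 16 higher and 23 lower without day 0 replicate 3. The ligand Bmp3, which opposes other BMPs in bone, had 1.12, 0.833 and 0.788 RPKM at day 0 and 38.1, 29.8 and 34.1 RPKM at day 7 and rose 37.2-fold (adjusted p = 7.97e-28, limma). Bmp8a rose 36.7-fold from 0.395 to 14.5 RPKM and Bmp2 3.33-fold from 2.44 to 8.14 RPKM, whereas Bmp4 had 21.4 ± 3.15 RPKM at day 0 and 19.2 ± 2.33 RPKM at day 7 (SD, n = 3) and did not pass. Of the BMP and activin antagonists, Grem1, gremlin, had 3.52, 3.61 and 3.3 RPKM at day 0 and 42.8, 42.9 and 37 RPKM at day 7 and rose 11.8-fold, and Nog, noggin, rose from 4.1 to 9.49 RPKM. Fst, follistatin, and its target Inhba, an activin subunit, rose from 10.9 to 32.4 RPKM and from 14.2 to 33.7 RPKM, and the decoy receptor Bambi from 3.73 to 16.4 RPKM.

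Apart from this decoy, the receptors of the family that were called were all lower. Tgfbr2, the type II TGF-β receptor, had 116, 128 and 106 RPKM at day 0 and 50.3, 43 and 52.8 RPKM at day 7 and fell 2.39-fold (log2 fold change -1.26, standard error 0.16, adjusted p = 5.48e-09). Acvr2a, an activin and BMP receptor, fell 3.3-fold from 10.7 to 3.23 RPKM, and Tgfbr3, betaglycan, from 8.96 to 4.04 RPKM. Bmpr1a and Bmpr2 had log2 fold changes of -0.22 and -0.28 and did not pass. The Id genes, early targets of BMP, did not move together: Id1 and Id4 had log2 fold changes of -0.66 and -1.27, and Id3, the highest of them, of 0.25, which did not pass. Fstl1, an abundant follistatin-like glycoprotein, fell from 299 to 157 RPKM and Tgfb3 from 68.4 to 45.5 RPKM.

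In the FGF pathway 6 of 23 tested members were higher and 5 lower. The 5 became 3 without day 0 replicate 2, day 7 replicate 2 or day 7 replicate 3, and with every gene that had a read. Fgfr3, the receptor whose overactivity stunts bone growth, had 5.81, 4.27 and 4.26 RPKM at day 0 and 18.7, 11.7 and 11.8 RPKM at day 7 and rose 2.94-fold, while Fgfr1 and Fgfr2, both at higher levels, had log2 fold changes of 0.01 and -0.04 and did not pass. Fgf9 fell from 2.51 to 0.537 RPKM. The feedback inhibitor Spry1 was lower, from 16.4 to 10.3 RPKM, and the phosphatases Dusp4 and Dusp5 were higher, from 0.443 to 1.46 RPKM and from 3.07 to 6.82 RPKM.

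Growth factors of the IGF, PDGF and VEGF families had 14 members higher and 10 lower of 38. Pdgfa had 14, 12.1 and 9.02 RPKM at day 0 and 49.9, 38.8 and 45.6 RPKM at day 7 and rose 3.82-fold (log2 fold change 1.93, standard error 0.16, adjusted p = 8.62e-14), and the receptors of its family, Pdgfra and Pdgfrb, fell from 19 to 10.5 RPKM and from 74.2 to 30.7 RPKM. Vegfa, the main growth factor of blood vessels, rose 3.66-fold from 29.3 to 107 RPKM, while its relative Vegfd fell 2.8-fold from 7.41 to 2.65 RPKM. The co-receptors Nrp2 and Nrp1 went in opposite directions, from 27.4 to 50.6 RPKM and from 14.2 to 6.69 RPKM. IGF binding proteins also divided: Igfbp2, the highest at day 0, had 862, 760.1 and 512 RPKM at day 0 and 329, 181 and 283 RPKM at day 7 and fell 2.69-fold, and Igfbp4 had 272, 300 and 230.1 RPKM at day 0 and 469, 398 and 390.2 RPKM at day 7, so that in each day 7 library Igfbp4 was above Igfbp2. The adjusted p of Igfbp4 was 0.0501 with every gene that had a read in the fit. Igfbp6 rose from 18.4 to 36.4 RPKM. Pappa2, a protease that frees IGF from its binding proteins, fell 2.89-fold from 35.7 to 12.4 RPKM. Igf2 had 248 ± 17.8 RPKM at day 0 and 190.2 ± 40.1 RPKM at day 7 (SD, n = 3) and did not pass, and Igf2r, which clears Igf2, fell from 99.7 to 47.2 RPKM.

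Hedgehog signals act through Ptch1, which holds the pathway back until a ligand binds, and Ptch1, Gli1 and Hhip are themselves induced by the pathway. Gli1, a transcription factor of the pathway, had 0.253, 0.297 and 0.282 RPKM at day 0 and 7.21, 4.34 and 6.34 RPKM at day 7 and rose 21.5-fold (log2 fold change 3.85, standard error 0.22, adjusted p = 4.93e-20). Ptch1 had 2.09, 2.29 and 1.92 RPKM at day 0 and 19.1, 12.1 and 15.3 RPKM at day 7 and rose 7.38-fold. Hhip, a decoy for the ligands, had 0.0874, 0.137 and 0.132 RPKM at day 0 and 3.45, 2.03 and 2.61 RPKM at day 7 and rose 22.7-fold. The 3 genes had no overlap between stages. The ligand Ihh had 4.35, 4.31 and 15.6 RPKM at day 0 and 5.55, 6.91 and 3.65 RPKM at day 7, with day 0 replicate 3 well above the others, and did not pass, and Shh was not tested for want of reads. The co-receptors Gas1 and Cdon fell from 34.8 to 16.8 RPKM and from 16.2 to 8.05 RPKM, and Gli3 and Sufu had log2 fold changes of -0.63 and -0.68. Together with Notch, the list had 6 of 22 members higher and 7 lower. The receptors Notch1 and Notch2 fell from 2.83 to 1.39 RPKM and from 25.3 to 17.1 RPKM, the ligand Jag2 rose 21.7-fold from 0.107 to 2.32 RPKM while Jag1 did not pass (log2 fold change -0.27, standard error 0.16, adjusted p = 0.217), and the Notch target Hes1 rose from 9.14 to 14.8 RPKM.

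**Figure D4:**
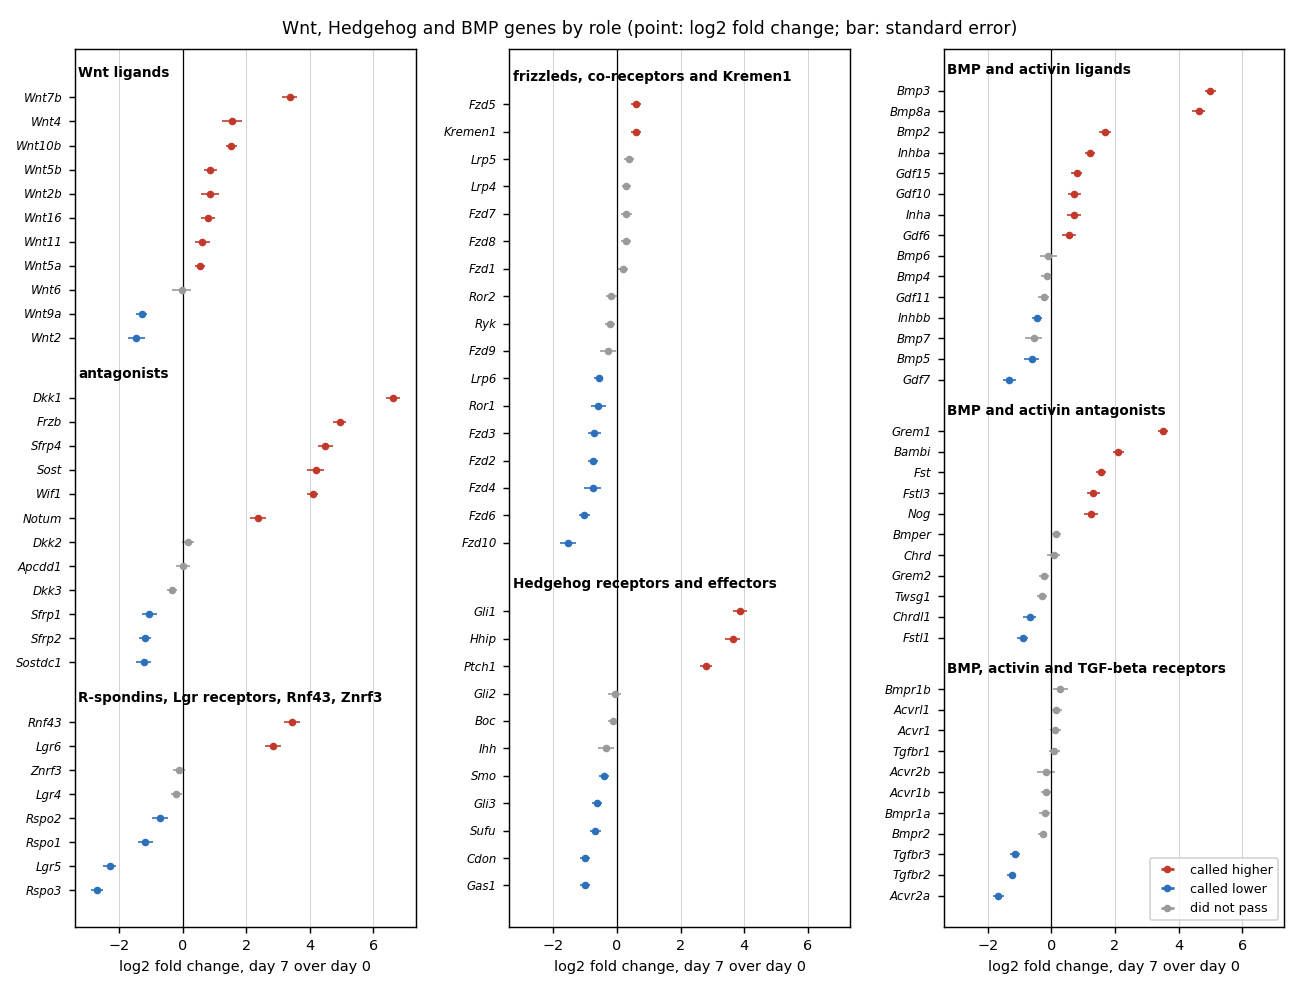
Log2 fold change of day 7 over day 0 (log2 of CPM + 0.5) with its standard error for Wnt, Hedgehog and BMP genes, grouped by role, in red where called higher, blue where called lower and grey where neither. Antagonists of Wnt and BMP hold large rises such as Dkk1 at 6.62 and Grem1 at 3.51, the R-spondins are all below 0, and the called receptors of the BMP and TGF-β family are all below 0.

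Receptors and enzymes through which hormones, prostaglandins and peptides act on bone cells had 19 members higher and 8 lower of 44 tested. Leaving out day 0 replicate 3 gave 13 lower, and leaving out day 0 replicate 1, day 0 replicate 2 or day 7 replicate 2 gave 5. Pth1r, the receptor of parathyroid hormone, had 36.9, 33.1 and 24.7 RPKM at day 0 and 309, 244 and 252 RPKM at day 7 and rose 8.5-fold (log2 fold change 3.09, standard error 0.16, adjusted p = 1.61e-21). Ptgis, prostacyclin synthase, had 15.3 ± 3.61 RPKM at day 0 and 146 ± 17.2 RPKM at day 7 (SD, n = 3) and rose 9.57-fold. Lepr, the leptin receptor, rose 4.74-fold from 2.07 to 9.83 RPKM, and Vdr, the vitamin D receptor, from 1.15 to 2.98 RPKM. The prostaglandin genes Ptgs2, Ptges and Ptger4 rose from 10.8 to 26.4 RPKM, from 9.85 to 17.8 RPKM and from 0.376 to 1.29 RPKM. Lpar3, a receptor of lysophosphatidic acid, rose 43.1-fold from 0.0845 to 3.64 RPKM, and Lpar1, present at 37.4 and 33.8 RPKM, did not pass. Ednra, the endothelin A receptor, fell from 3.45 to 1.64 RPKM. Calcitonin receptor-like receptor, Calcrl, the partner of Ramp1, had 1.71 ± 0.316 RPKM at day 0 and 1.47 ± 0.481 RPKM at day 7 (SD, n = 3) and did not pass.

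Immediate early genes, which respond within minutes to growth factors, strain or cell dissociation, had 11 members higher and 2 lower of 26 tested. Without day 0 replicate 3, without the pair of libraries high in Gm42418, or with CPM over the genes that do not move with it, 4 were lower. Klf4 had 15.9, 22.4 and 17.4 RPKM at day 0 and 74.4, 63.4 and 64.3 RPKM at day 7 and rose 3.63-fold, Ier3 rose from 17.6 to 48.9 RPKM, and Atf3 from 4.59 to 10.9 RPKM. Fos had 4.85 ± 0.237 RPKM at day 0 and 5.1 ± 1.59 RPKM at day 7 (SD, n = 3) and did not pass, and Egr1 fell from 6.98 to 3.9 RPKM. As the labels give collagenase for mineralized and not for non-mineralized cells, dissociation and stage cannot be told apart for these genes.

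Transcription factors of osteoblasts and of the skeleton had 15 of 62 tested members higher and 29 lower. Dlx3, a homeodomain factor of late osteoblasts, had 1, 0 and 3 reads at day 0 and 6.2, 4.74 and 5.15 RPKM at day 7, a rise of at least 49.2-fold. Mef2c, which drives the osteocyte gene Sost, had 5.71, 6.55 and 4.01 RPKM at day 0 and 52.5, 50.1 and 45.3 RPKM at day 7 and rose 9.08-fold (log2 fold change 3.19, standard error 0.16, adjusted p = 7.42e-22). Creb3l1, a factor of the secretory stress response that acts on collagen genes, rose from 18 to 57.4 RPKM, Bhlhe40 from 11.1 to 45.3 RPKM and Shox2, a homeodomain factor of the limb and palate, from 2.71 to 7.09 RPKM. Runx2, the master factor of the lineage, had 7.57, 8.32 and 8.28 RPKM at day 0 and 10.1, 8.78 and 9.49 RPKM at day 7 and did not pass (log2 fold change 0.23, standard error 0.15, adjusted p = 0.268). It was called higher under 4 of 15 alternatives. These were median-of-ratios scaling, edgeR, voomWithQualityWeights and the fit without the pair of libraries high in Gm42418. Limma with voomWithQualityWeights is also the approach given in the study's methods, so Runx2 was called higher by that approach here. The study counted Runx2 among the markers induced in its heatmap. Runx3, a relative of Runx2, rose from 1.38 to 3.56 RPKM, and their shared partner Cbfb had a log2 fold change of -0.15, which did not pass.

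Of the 29 that were lower, Msx2 had 43.7, 36.4 and 34 RPKM at day 0 and 11.7, 8.62 and 9.66 RPKM at day 7 and fell 3.8-fold (log2 fold change -1.91, standard error 0.16, adjusted p = 5.84e-14), and Msx1 fell from 15.9 to 5.43 RPKM. Sox11, a factor of progenitors, had 5.5, 4.86 and 3.76 RPKM at day 0 and 0.793, 0.743 and 0.785 RPKM at day 7 and fell 6.08-fold. Six2 and Six4 fell from 14.8 to 7.25 RPKM and from 2.75 to 1.47 RPKM. Zic1 and Zic2 fell from 27.9 to 11.1 RPKM and from 20.2 to 9.68 RPKM. En1 and Lmx1b fell from 14.5 to 5.93 RPKM and from 4.14 to 1.59 RPKM, and all of these had no overlap between stages. Twist1, which restrains Runx2, fell less, from 97 to 67.2 RPKM, and the call was lost without day 0 replicate 2, day 7 replicate 1 or day 7 replicate 2 (adjusted p = 0.119, 0.0563 and 0.0555 in turn). Sox9, Sox5 and Sox6 of cartilage had log2 fold changes of -0.73, -1.86 and -0.78, and Scx and Mkx of tendon -0.65 and -1.12. The adjusted p of Sox9 was 0.0568 with voomWithQualityWeights. Prrx2, a marker of skeletal mesenchyme with a high level, had 81.4 ± 6.12 RPKM at day 0 and 66.1 ± 6.41 RPKM at day 7 (SD, n = 3) and did not pass.

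**Figure D5:**
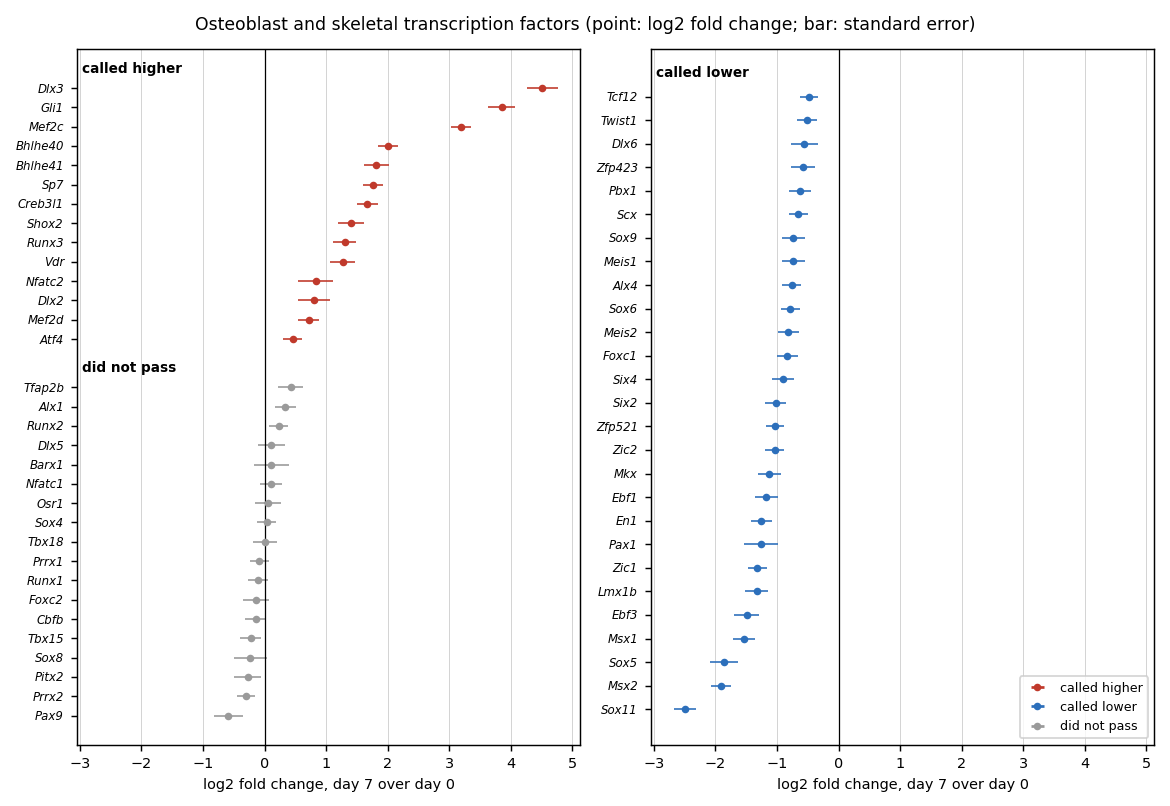
Log2 fold change of day 7 over day 0 (log2 of CPM + 0.5) with its standard error for osteoblast and skeletal transcription factors, 59 of the 62 tested, in red where called higher, blue where called lower and grey where neither. Dlx3, Gli1 and Mef2c stand at 4.51, 3.85 and 3.19, and Sox11 and Msx2 at -2.50 and -1.91.

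Fox, Sox and Klf factors had 5 of 47 higher and 18 lower, and 9 higher with median-of-ratios scaling, edgeR or voomWithQualityWeights. Foxs1 had 0.762, 1.08 and 0.492 RPKM at day 0 and 11.3, 9.14 and 9.08 RPKM at day 7 and rose 12.6-fold, while Foxp2, Foxp1, Foxc1 and Klf5 had log2 fold changes of -1.93, -0.72, -0.83 and -1.04. Foxe3 is 1 of the 16 genes that moved with Gm42418, with 286, 365 and 1436 RPKM at day 0 and 146, 727 and 18.7 RPKM at day 7, highest in day 0 replicate 3 and day 7 replicate 2, and the call was lost without day 0 replicate 3 (adjusted p = 0.28), and also with median-of-ratios scaling, with edgeR or with voomWithQualityWeights (adjusted p = 0.197, 0.393 and 0.207 in turn). Its log2 fold change of -2.06 became -1.35 without day 0 replicate 3, -3.32 without day 7 replicate 2 and -0.70 without day 7 replicate 3. Nuclear receptors had 8 of 30 higher and 4 lower, among them Rora from 2.81 to 5.05 RPKM and Nr1h3, the liver X receptor, from 0.452 to 1.31 RPKM, against Rxra from 39.1 to 23.4 RPKM. Without any one library other than day 0 replicate 3, 2 nuclear receptors were lower. Helix-loop-helix factors had 11 of 42 higher and 13 lower, with Bhlha15, a factor of secretory cells, rising at least 14.3-fold from at most 3 reads in each day 0 library, Mxi1 from 2.66 to 8.24 RPKM and Arnt2 falling from 4.35 to 1.73 RPKM. In the interferon and Stat list, 2 of 20 were higher and 2 lower. That is 10% each, against 12.7% and 18.9% of all protein-coding genes tested. With day 0 replicate 3 left out, 6 were lower and 1 higher, and leaving out other libraries gave 1 higher (day 0 replicate 1, day 7 replicates 1 and 2) or 1 lower (day 0 replicate 2 and each day 7 replicate). With voomWithQualityWeights 4 were higher, and with CPM over the genes that do not move with Gm42418 7 were lower. Irf7 rose from 1.02 to 2.64 RPKM and Irf1 had 12.6, 12.4 and 11.2 RPKM at day 0 and 5.41, 4.12 and 6.47 RPKM at day 7. Of 39 Hox genes 27 had reads and 1 was tested, Hoxd8, whose stages overlapped (log2 fold change -1.04, standard error 0.32, adjusted p = 0.0102). Moreover, the call was lost without day 0 replicate 2 or day 7 replicate 1 (adjusted p = 0.266 and 0.144 in turn), and also with every gene that had a read, with median-of-ratios scaling or with CPM over the genes that do not move with Gm42418 (adjusted p = 0.0652, 0.112 and 0.0521 in turn).

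Of 9 chemokines tested, 1 was higher and 3 lower. Ccl9, made by myeloid cells and osteoclasts, rose from 0.3 to 0.696 RPKM, and the call was lost without day 7 replicate 1 (adjusted p = 0.0772) and without the pair of libraries high in Gm42418 (adjusted p = 0.053). With every gene that had a read 3 chemokines were higher, and with voomWithQualityWeights 2. Of those lower, Ccl7, a monocyte attractant, had 15.7, 19.5 and 12.9 RPKM at day 0 and 0.822, 1.29 and 1.92 RPKM at day 7 and fell 11.9-fold (log2 fold change -3.10, standard error 0.24, adjusted p = 1.94e-15), and its neighbour Ccl2 had 5.39, 4.41 and 7.26 RPKM at day 0 and 1.03, 1.07 and 0.618 RPKM at day 7 and fell 6.28-fold. Cxcl14, the chemokine with the highest level, had 33.1 ± 9.86 RPKM at day 0 and 29.2 ± 6.2 RPKM at day 7 (SD, n = 3) and did not pass. Of 11 interleukins and related cytokines 2 were higher and 1 lower, 18.2% and 9.09%, against 12.7% and 18.9% of all protein-coding genes tested. Mif, macrophage migration inhibitory factor, rose 2.77-fold from 82.8 to 229 RPKM. Csf1, the growth factor of macrophages and osteoclasts, was at 42 and 35.4 RPKM without passing. Leaving out day 0 replicate 3 gave 4 lower, and leaving out any other library but day 7 replicate 3 gave 0. With every gene that had a read, 4 of these were higher and 0 lower, and with CPM over the genes that do not move with Gm42418 3 were lower.

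In the TNF family 4 of 23 were higher and 6 lower, 17.4% and 26.1%, against 12.7% and 18.9% of all protein-coding genes tested. With median-of-ratios scaling or voomWithQualityWeights 7 were higher. The 6 became 3 when day 0 replicate 1, day 0 replicate 2, day 7 replicate 2 or day 7 replicate 3 was left out. Tnfsf11, RANKL, the signal for osteoclast formation, had 0.893, 0.449 and 0.693 RPKM at day 0 and 2.59, 2.22 and 2.12 RPKM at day 7 and rose 3.4-fold (log2 fold change 1.51, standard error 0.24, adjusted p = 1.85e-06). Tnfrsf11b, osteoprotegerin, which captures RANKL, had 30.2, 15.2 and 16.9 RPKM at day 0 and 33.2, 21 and 32.9 RPKM at day 7 (log2 fold change 0.52, standard error 0.19, adjusted p = 0.0302). It was above RANKL in every library, but its stages overlapped and the call was lost without day 0 replicate 2, day 0 replicate 3, day 7 replicate 1 or day 7 replicate 3 (adjusted p = 0.224, 0.196, 0.226 and 0.145 in turn), and also with every gene that had a read, with edgeR, with CPM over the genes that do not move with Gm42418 or without the pair of libraries high in Gm42418 (adjusted p = 0.0798, 0.0538, 0.0998 and 0.0771 in turn). Tnfsf9 rose from 0.837 to 4.62 RPKM, Tnfsf15 fell 6.5-fold from 1.95 to 0.301 RPKM and Eda2r, a receptor of ectodysplasin, from 14.4 to 8.15 RPKM. Of the osteoclast markers examined, 5 of 9 were tested and 3 were higher, Ctsk, Acp5 and Atp6v0d2. Mmp9 was lower (log2 fold change -0.86) and Itgb3 did not pass. Calcr, Dcstamp, Ocstamp and Oscar did not reach the filter, and 2 of the 9 markers had at most 3 reads in every library. The summed level of the 9 was 109.6 to 143 RPKM at day 0 and 245 to 254 RPKM at day 7.

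Complement and coagulation proteins had 13 of 31 higher and 3 lower, or 6 lower with day 0 replicate 3 left out, without the pair of libraries high in Gm42418 or with CPM over the genes that do not move with it, and 5 with every gene that had a read. Serping1, the C1 inhibitor, had 2.76, 2.52 and 2.28 RPKM at day 0 and 10.4, 8.01 and 6.41 RPKM at day 7 and rose 3.28-fold (log2 fold change 1.61, standard error 0.20, adjusted p = 3.91e-09). The 3 chains of C1q rose alike, C1qa from 3.63 to 11.9 RPKM, C1qb from 2.59 to 8.53 RPKM and C1qc from 1.65 to 6.17 RPKM. C1q is made mainly by macrophages, and the macrophage markers moved the same way: 9 of 10 were tested and all 9 were higher, none was at 0 in all libraries, and their summed level was 43.8 to 75.5 RPKM at day 0 and 81.7 to 109 RPKM at day 7. Their part in the rise of C1q was not tested. Thrombomodulin, Thbd, fell from 56.9 to 31.9 RPKM.

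Serpins and other protease inhibitors had 11 of 23 higher and 6 lower. Slpi, an inhibitor of leukocyte elastase, had 2.12, 1.7 and 1.2 RPKM at day 0 and 29, 10.3 and 12.5 RPKM at day 7 and rose 10.3-fold, Pi15 rose 16.7-fold from 0.127 to 2.12 RPKM, and Serpine2, which inhibits thrombin and plasminogen activators, 3.22-fold from 17.5 to 56.5 RPKM. Serpinf1, pigment epithelium-derived factor, whose loss causes brittle bones, had 703, 761 and 687 RPKM at day 0 and 493, 482 and 449 RPKM at day 7. Its day 7 libraries lay below those of day 0 (log2 fold change -0.59, standard error 0.17, adjusted p = 0.0048), and the call was lost without day 7 replicate 3 (adjusted p = 0.0594) and with every gene that had a read (adjusted p = 0.0626).

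Ligands that guide axons, many of which also act on bone cells and vessels, had 9 of 43 higher and 16 lower. Semaphorins of class 3, which are secreted, split. Sema3b had 4.26, 3.64 and 3.58 RPKM at day 0 and 26.9, 23.2 and 29.8 RPKM at day 7 and rose 6.95-fold, and Sema3d had 3.18, 3.64 and 2 RPKM at day 0 and 22.5, 15.4 and 16.6 RPKM at day 7 and rose 6.18-fold. Sema3c had 44.3, 49.6 and 37 RPKM at day 0 and 10.8, 10.8 and 11.7 RPKM at day 7 and fell 3.93-fold, and Sema3e, Sema3f and Sema3a, the last known to protect bone, fell from 9.98 to 2.55 RPKM, from 9.86 to 2.89 RPKM and from 18.2 to 11.8 RPKM. Sema7a, a membrane-anchored semaphorin, rose from 5.62 to 17.3 RPKM. The ephrins Efnb2, Efna4 and Efna5 and the guidance cues Slit2, Slit3 and Ntn1 had log2 fold changes of -1.08, -1.13, -1.07, -0.79, -0.92 and -1.07. Ptn, pleiotrophin, a ligand of Ptprz1, fell from 142 to 103 RPKM, and the call was lost without day 0 replicate 2, day 7 replicate 1, day 7 replicate 2 or day 7 replicate 3 (adjusted p = 0.242, 0.0595, 0.147 and 0.0706 in turn).

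Of the receptors of these cues, 17 of 26 tested were lower and 4 higher. Epha7 and Epha5 had log2 fold changes of -2.02 and -1.38, at low levels. Plxna1, a semaphorin receptor subunit, had 28.2, 25.7 and 31.5 RPKM at day 0 and 17.2, 14.2 and 15.1 RPKM at day 7 and fell 1.84-fold (log2 fold change -0.88, standard error 0.15, adjusted p = 9.62e-06). Plxnc1, the receptor of Sema7a, fell from 10.3 to 3.96 RPKM, and Ephb4, a receptor of Efnb2, from 20.8 to 11.2 RPKM. Robo2 and Epha2 were higher, from 1.1 to 3.11 RPKM and from 25.6 to 40.5 RPKM, and Plxnb2, a member with a high level, did not pass (log2 fold change -0.15, standard error 0.16, adjusted p = 0.508).

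Receptor tyrosine kinases had 5 of 34 higher and 16 lower, or 10 lower with day 0 replicate 2 left out. Ephrin receptors are counted in both lists. Met, the receptor of hepatocyte growth factor, fell from 1.3 to 0.694 RPKM. Ptk7, the member with the highest level, had 156, 158 and 132 RPKM at day 0 and 120.2, 102 and 108 RPKM at day 7, and the call was lost without day 0 replicate 1, day 0 replicate 2, day 7 replicate 1, day 7 replicate 2 or day 7 replicate 3 (adjusted p = 0.113, 0.143, 0.0511, 0.16 and 0.145 in turn), and also with every gene that had a read or with a replicate block (adjusted p = 0.0915 and 0.0631 in turn). Ddr2, a receptor activated by fibrillar collagen, had 69.2 ± 7.67 RPKM at day 0 and 56.9 ± 1.28 RPKM at day 7 (SD, n = 3) and did not pass. Csf1r, the receptor of Csf1 and a macrophage marker, rose from 0.959 to 1.92 RPKM, and Kit, with at most 3 reads in each day 0 library, at least 10.2-fold, to 0.497 RPKM.

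Integrins link cells to matrix, and 7 of 21 were higher and 6 lower. Itga10, a collagen-binding α chain of cartilage and bone surfaces, had 1.98, 1.82 and 1.22 RPKM at day 0 and 17, 15.3 and 16.9 RPKM at day 7 and rose 9.79-fold (log2 fold change 3.25, standard error 0.18, adjusted p = 7.05e-21). The other collagen-binding chains that were called, Itga1 and Itga11, fell. Itga1 had 8.37, 5.46 and 4.73 RPKM at day 0 and 2.73, 1.86 and 2.24 RPKM at day 7. Itga11 had 70.9, 87 and 78.6 RPKM at day 0 and 52.4, 36.6 and 42.1 RPKM at day 7. Itga7 and Itga6, which bind laminin, rose from 0.63 to 4.92 RPKM and from 1.46 to 3.71 RPKM, and Itgav, whose dimers bind fibronectin and vitronectin, fell from 51.6 to 26.4 RPKM. Itgb1, the shared β chain and the integrin with the highest level, had 354, 339.8 and 245 RPKM at day 0 and 267, 267 and 264 RPKM at day 7 and did not pass. Itgam of macrophages rose from 0.306 to 0.619 RPKM, and the call was lost without day 7 replicate 1 (adjusted p = 0.137) and with every gene that had a read (adjusted p = 0.0556).

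Cadherins and protocadherins had 5 of 37 higher and 9 lower, and 9 higher with every gene that had a read. The shares of 13.5% and 24.3% are near the 12.7% and 18.9% of all protein-coding genes tested. Cdh11, the osteoblast cadherin with the highest level of the list, had 402, 464 and 346 RPKM at day 0 and 203, 172 and 193 RPKM at day 7 and fell 2.13-fold (log2 fold change -1.09, standard error 0.17, adjusted p = 1.09e-06), and Cdh2, N-cadherin, rose from 8.23 to 14.8 RPKM. The giant cadherins Fat3 and Fat4 moved in opposite directions, from 1.2 to 9.29 RPKM and from 8.78 to 3.96 RPKM, and Pcdh9, a protocadherin, fell 2.63-fold from 3.58 to 1.36 RPKM. Of 7 connexins, pannexins and claudins tested, Panx3, a channel of osteoblasts and hypertrophic chondrocytes, had 4.26, 2.52 and 1.94 RPKM at day 0 and 110.3, 78.8 and 97.5 RPKM at day 7 and rose 32.9-fold (log2 fold change 5.01, standard error 0.19, adjusted p = 2.49e-27), and Panx1 fell from 6.72 to 3.3 RPKM. In all 1 of the 7 was higher and 4 lower. With every gene that had a read, and so with more members tested, 2 were higher and 7 lower, and 3 were higher with voomWithQualityWeights. Gja1, connexin 43, the main gap junction protein of bone cells, had 89.9 ± 17.3 RPKM at day 0 and 105 ± 4.01 RPKM at day 7 (SD, n = 3) and did not pass.

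Adhesion molecules of the immunoglobulin family, glypicans, syndecans and CD antigens had 20 of 52 tested members higher and 17 lower. Without day 0 replicate 2 or day 7 replicate 3, 11 were lower. Cd200, which restrains myeloid cells, had 3.78, 3.85 and 2.8 RPKM at day 0 and 63.3, 64.2 and 55.1 RPKM at day 7 and rose 17.5-fold (log2 fold change 4.08, standard error 0.16, adjusted p = 4.36e-26). Cadm1 rose 15.9-fold from 0.916 to 14.5 RPKM, Nt5e, CD73, which makes adenosine, 5.45-fold from 2.17 to 11.8 RPKM, and Cspg4, NG2, 4.46-fold from 20.7 to 92.1 RPKM. Sdc3, syndecan 3, rose from 22.9 to 74.8 RPKM. Vcam1 had 67, 61.5 and 42.7 RPKM at day 0 and 19.7, 17.4 and 20.1 RPKM at day 7 and fell 2.99-fold, and the progenitor marker Ly6a fell from 51.7 to 34.7 RPKM, while Thy1 had a log2 fold change of 0.11 and did not pass. Glypicans, which hold growth factors at the surface, were Gpc1 higher, from 231 to 365 RPKM, and Gpc3, Gpc4 and Gpc2 lower, with log2 fold changes of -0.72, -0.58 and -0.87.

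Adhesion and orphan G protein-coupled receptors had 17 of 49 higher and 12 lower, with 4 members also in the hormone list. Adgrd1, an adhesion receptor, had 0.223, 0.191 and 0.124 RPKM at day 0 and 9.65, 8.43 and 6.93 RPKM at day 7 and rose 46.5-fold (log2 fold change 5.14, standard error 0.20, adjusted p = 8.89e-27). Gpr35 rose 46.9-fold from 0.152 to 7.11 RPKM, Gprc5c 7.43-fold from 6.74 to 50 RPKM and Ackr3, a scavenger of chemokines, 3.8-fold from 6.35 to 24.2 RPKM. Adgrg6, which binds type IV collagen and laminin, had 12.8, 12.8 and 9.82 RPKM at day 0 and 3.52, 2.96 and 3.46 RPKM at day 7 and fell 3.56-fold. Adgra2, the member with the highest level at day 0, fell from 53.2 to 29.1 RPKM. Gpr84, Gpr141 and Gpr183, which are best known from myeloid cells, rose from 0.145 to 1.97 RPKM, from 0.159 to 1.72 RPKM and from 0.157 to 1.31 RPKM, beside the macrophage markers given above.

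Ion channels had 21 of 84 tested members higher and 27 lower. Of the potassium channels, Kcnk1 had 3.07, 2.91 and 2.41 RPKM at day 0 and 44.1, 39.6 and 42.5 RPKM at day 7 and rose 15-fold (log2 fold change 3.82, standard error 0.17, adjusted p = 2.81e-24), Kcnn4, opened by calcium, had 3.82, 4.03 and 3.75 RPKM at day 0 and 41.3, 33.5 and 42.9 RPKM at day 7 and rose 10.2-fold, and Kcnf1, Kcnk6 and Kcne4 rose from 0.0922 to 3.37 RPKM, from 0.922 to 8.95 RPKM and from 3.51 to 24 RPKM. Ano1, a chloride channel opened by calcium, rose 14.4-fold from 0.638 to 9.18 RPKM. Among channels that sense force, Piezo1 had 54.5, 60.6 and 63.9 RPKM at day 0 and 35.9, 32.8 and 32.8 RPKM at day 7 and fell 1.76-fold, Trpv4 had 1.47, 0.615 and 0.855 RPKM at day 0 and 4.85, 2.89 and 3.64 RPKM at day 7 and rose 3.87-fold, and Pkd2, of the primary cilium, fell from 43.6 to 24.7 RPKM. The chloride-proton exchanger Clcn7, of lysosomes and osteoclasts, fell from 15.7 to 9.46 RPKM, and Kcnq5, a potassium channel, from 3.22 to 1.63 RPKM.

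Membrane transporters outside energy metabolism had 28 of 130 higher and 25 lower, 40.8% called. The share lower, 19.2%, is near the 18.9% of all protein-coding genes tested, and the share higher is 21.5% against 12.7%. The count higher was 49 with median-of-ratios scaling or edgeR and 56 with voomWithQualityWeights, and the count lower was 38 without day 0 replicate 3 and 42 with CPM over the genes that do not move with Gm42418. Slc13a5, a carrier of citrate, had 5.35, 3.66 and 3.75 RPKM at day 0 and 108, 83.9 and 94 RPKM at day 7 and rose 22.4-fold (log2 fold change 4.45, standard error 0.16, adjusted p = 1.38e-27). Slc44a1, a choline carrier, rose from 13.4 to 43.6 RPKM, Slc39a13, a zinc carrier of the secretory pathway needed for connective tissue, from 19 to 38.4 RPKM, Slc39a14 from 12.6 to 25 RPKM and Slc17a9, which loads ATP into vesicles, from 0.362 to 4.32 RPKM. Slc7a5, a carrier of large neutral amino acids, had 152, 183 and 152 RPKM at day 0 and 91.1, 86.2 and 99.2 RPKM at day 7 and fell 1.76-fold (log2 fold change -0.81, standard error 0.16, adjusted p = 4.84e-05), while Slc3a2, its partner chain, did not pass (log2 fold change -0.03, standard error 0.16, adjusted p = 0.916). Slc9a9, a sodium-proton exchanger of endosomes, fell 3.31-fold from 4.17 to 1.26 RPKM. Slc40a1, the iron exporter ferroportin, fell from 5.82 to 2.72 RPKM, and Slc48a1, a haem carrier, from 87.5 to 47.7 RPKM.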

How the data were processed

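Ribosomal RNA was removed with Ribo-Zero Gold before sequencing of 3 libraries at each stage. The authors aligned reads with STAR (2.0.4b in the submitters' processing notes) to GRCm38 and counted unambiguous reads per gene with featureCounts of Subread. They deposited CPM, reads scaled to a fixed total of reads counted on genes, and RPKM, which divides these by the length of the gene model as well. The table held 40824 lines for 40548 genes, of which 276 repeated lines were dropped.

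Groups were taken from the labels. Genes with a mean of at least 1 CPM over the 6 libraries, 12712 in all, were tested on log2(CPM + 0.5) with limma 3.58.1 (trended moderation, prior degrees of freedom 42.9 against 4 residual) in R 4.3.3, with Benjamini-Hochberg adjustment over all of them and a threshold of 0.05. Log2 fold changes are on that scale, on which low genes seem to change less than they do, and fold changes and levels are from RPKM. Where no library of day 0 held more than 3 reads, the fold was computed against 3 reads per library and is a lower bound. Read counts were recovered from the steps of the CPM values, of which 100% in each library lay within 0.05 of a whole read, and edgeR 4.0.16 on them was an alternative. Such bounds cover counting error only.

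The comparison, its gene lists and the tests were chosen with earlier results of these data known. Named were, in each list, the largest rise and largest fall past the threshold without overlap and with a mean of at least 5 CPM. Up to 3 members with the highest RPKM in each list were also named. So were the 10 largest rises and falls past the threshold without overlap among genes with a mean of at least 10 CPM. Further members were named for their role after their values had been seen, and a few members, counted in their lists, are not reported here. Whether counting used strand is not given in the sources used here, and exons of 89 of the 356 named genes overlap a gene on the other strand in GENCODE M21, whose reads then cannot be told apart. Promoters came from RefSeq. The test was also run on simulated counts. These had the same dispersion (spread beyond counting error) for all genes and no shift like that of Gm42418, so they cannot check its effect on the calls. Alternatives were other pseudocounts, filters, scalings and tools, a replicate block and leaving out each library. Day 4 was not used here.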

Additional observations from a re-analysis of the deposited data

How the results depend on the processing

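The comparison was repeated under 15 alternatives, 2 of them chosen after seeing the data: CPM over the genes that do not move with Gm42418, and the fit without the pair of libraries high in it (day 0 replicate 3 and day 7 replicate 2). The 1539 protein-coding genes higher at day 7 became 2741 with median-of-ratios scaling, 2719 with edgeR on recovered reads and 3038 with limma's voomWithQualityWeights on those reads, where 51.8%, 51.3% and 51.2% of calls were higher. The 2283 genes lower became 4561 with CPM over the genes that do not move with Gm42418 (27.1% of calls higher) and 4127 without the pair (28.7%). Leaving out 1 library gave 1125 to 1545 genes higher and 1462 to 4575 lower. The counts by class stayed within 1.5 times those given. Of the named genes that were called, 0 changed sign and 296 of 316 kept their call under all 15 alternatives, while 25 of the 35 named genes that did not pass were called under at least 1. Most often called among the latter were Dkk3 (6 alternatives), Col11a1 and Lox (5 each), and Lrp5 and Runx2 (4 each).

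Same-numbered libraries did not deviate together (correlations of -0.02, -0.18 and -0.44), so the numbers were not taken to pair samples, and with a replicate block 1402 genes were higher and 1870 lower. No library of day 0 correlated best with its own number. Genes that did not pass and whose log2 fold change turned sign were Col5a2 (0.099, 0.096 and 0.104 with median-of-ratios scaling, edgeR and voomWithQualityWeights), Fgfr2 (0.0707, 0.0688 and 0.0627) and Slc3a2 (0.0817, 0.0649 and 0.023) under the same 3. Under voomWithQualityWeights alone Ihh was at 0.19, Cxcl14 at 0.0386 and Plxnb2 at 0.0345, with Ihh at 0.0551 without the pair. With CPM over the genes that do not move with Gm42418, Fgfr1 was at -0.0796, Fos at -0.0522 and Mmp14 at -0.0207. Over the fits that leave out 1 library, the log2 fold change ranged from -0.14 to 0.0666 for Col5a2, from -0.34 to 0.0684 for Cxcl14, from -0.0702 to 0.0901 for Fgfr1, from -0.15 to 0.0497 for Fgfr2, from -0.20 to 0.16 for Fos, from -0.66 to 0.26 for Ihh and from -0.12 to 0.11 for Slc3a2. Why these values moved was not tested. Depth limits genes under 1 CPM, which were not tested, and 3 reads correspond to 0.192 to 0.387 CPM.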

Other observations

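Among the largest changes, 4 families that the gene lists cover in part or not at all were counted as wholes. They were chosen after their values had been seen, so their counts are descriptions, and Car12, Smpd3 and receptors of sphingosine phosphate are also counted in those lists. Of all protein-coding genes tested, 12.7% were higher, 18.9% were lower and 42.8% had no overlap between stages. Of 16 carbonic anhydrases, which interconvert carbon dioxide and bicarbonate, 3 had no reads and 9 were tested. Of these 9, 5 were higher and 1 lower, 55.6% and 11.1%. Car3 had 0.189, 0.222 and 0.171 RPKM at day 0 and 15.4, 13.9 and 12.5 RPKM at day 7 and Car9, a surface form known from hypoxic cells, had 4.4, 2.76 and 2.35 RPKM at day 0 and 67.6, 67.6 and 45.9 RPKM at day 7. Car8 rose from 0.114 to 3.64 RPKM and Car13 from 3.16 to 6.13 RPKM. Of 13 tested N-acetylgalactosaminyltransferases, which start mucin-type sugar chains on proteins, 3 were higher and 4 lower, 23.1% and 30.8%. Galnt6 had 0.0553, 0.108 and 0.0667 RPKM at day 0 and 5.97, 5.32 and 5.85 RPKM at day 7, and Galnt3, which protects the phosphate hormone Fgf23 from cleavage, had 2.93, 2.56 and 2.1 RPKM at day 0 and 24.2, 19.5 and 21.8 RPKM at day 7. Galnt5 rose from 0.945 to 3.8 RPKM, and Galnt17 and Galnt4 fell from 1.64 to 0.62 RPKM and from 8.95 to 4.24 RPKM.

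Genes of sphingomyelin and sphingosine phosphate turnover had 8 of 20 tested members higher and 4 lower. These are 40% and 20%, against 12.7% and 18.9% of all protein-coding genes tested. Beside Smpd3, Sgms2, a sphingomyelin synthase mutated in a skull and bone disease, had 2.48, 2.58 and 1.91 RPKM at day 0 and 106, 88.4 and 93.5 RPKM at day 7, and Spns2, the exporter of sphingosine phosphate, had 1.21, 0.737 and 0.759 RPKM at day 0 and 31.7, 32.3 and 28.2 RPKM at day 7. Smpdl3b rose from 6.67 to 19.1 RPKM. A sphingomyelinase and a sphingomyelin synthase were thus both higher. All 3 teneurins tested, large adhesion proteins of neurons and connective tissue, were lower, 2 of them without overlap between stages: Tenm4 had 6.8, 8.09 and 8.47 RPKM at day 0 and 1.6, 1.83 and 1.7 RPKM at day 7, Tenm3 had 57.4, 54.2 and 53.5 RPKM at day 0 and 18.9, 12.9 and 15.6 RPKM at day 7, and Tenm2 fell from 1.67 to 0.678 RPKM, where the call was lost without day 0 replicate 3 (adjusted p = 0.17), and also with median-of-ratios scaling, with edgeR, with voomWithQualityWeights or with CPM over the genes that do not move with Gm42418 (adjusted p = 0.155, 0.137, 0.167 and 0.0625 in turn).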
